A study of Homo sapiens with 6 samples.

Results

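The genes described here encode the human Mediator complex. They were chosen by name, as the protein-coding genes whose GENCODE symbol is MED followed by a number, with an optional L suffix, together with CCNC, CDK8 and CDK19, which gives 33 genes of 58096 in the files. Mediator is a large assembly that joins transcription factors bound at enhancers to RNA polymerase II at promoters. Its head and middle modules touch the polymerase, its tail receives the transcription factors, MED14 runs through all of them as a scaffold, and a separable kinase module of CDK8 or CDK19, cyclin C, MED12 and MED13 binds to the core reversibly. MED1 is a common mark of strongly active enhancers.

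The cells were of the established human line ALL-SIL, from a T-cell leukaemia, in which TLX1 is rearranged and a NUP214-ABL1 fusion is present. JQ1, which competes with acetylated histones for the bromodomains of BET proteins, was given at 1 µM for 24 h to 3 samples, and 3 control samples were labelled DMSO, the solvent. The treatment text of the labels repeats the JQ1 dose for the controls, so the groups rest on the sample titles. All 6 samples are of 1 cell line, and the labels do not give the origin of the replicates. The p-values therefore reflect only how far these libraries scatter, and that scatter could be technical. Stranded libraries of total RNA held 15925885 to 24857219 gene counts in the JQ1 group and 20391040 to 25293884 in the DMSO group. Of 6 markers of T-lineage leukaemia 5 were tested, with a summed level of 529 to 677 CPM in JQ1 and 927 to 991 in DMSO libraries, while PTCRA was too low to test. Within that sum CD5 (-2.50), LCK (-1.86), CD3E (-0.88) and CD7 (-0.48) were called lower and TLX1 (0.45) higher, as log2 fold changes of JQ1 over DMSO. The 4 B-cell markers summed to 0.709 to 5.25 CPM in JQ1 and 4.36 to 12.6 in DMSO libraries, nearly all of it CD79A, and the myeloid, erythroid and stromal or epithelial markers summed to at most 0.157 CPM in any library. The oncogene MYC, the usual readout of BET inhibition, fell to 135.3 ± 14.8 CPM in JQ1 libraries, against 358.5 ± 12.1 CPM in DMSO libraries.

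All 33 Mediator genes passed the filter on low counts and were tested. Levels are given as CPM, read counts scaled to a common normalised library size, and differences as the log2 fold change of JQ1 over DMSO with its standard error, from edgeR's quasi-likelihood test with Benjamini-Hochberg adjustment over all 13975 tested genes. A gene is called higher or lower at an adjusted p under 0.05. This main fit leaves out the replicate number, which was used as a block in an alternative fit. In bulk RNA a change in the share of cells that express a gene cannot be told apart from a change in RNA per cell.

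RefSeq promoter windows of 3 of the 4 Mediator genes with the firmest changes are shown first. Each run is the 250 bases before the RefSeq start on GRCh38.p14, read on the minus strand of the gene and written 5′ to 3′, with capitals wherever either strand matched one of the searched motifs. These were CACGTG (the E-box of MYC and MAX), CCGGAA (the ETS core), CCAAT (the NF-Y box), GGGCGG (the SP1 box) and TATAAA (the TATA box). They lie at chr17:40054409-40054658 for MED24, chr6:41920944-41921193 for MED20 and chr19:16628205-16628454 for MED26. RefSeq places the starts of MED24, MED20 and MED26 inside the GENCODE gene bounds, which end at 40061215, 41921139 and 16629062. These windows thus precede the RefSeq start and not the outermost GENCODE one. Those of MED24 and MED26 lie wholly within the bounds, and that of MED20 in part.
MED24: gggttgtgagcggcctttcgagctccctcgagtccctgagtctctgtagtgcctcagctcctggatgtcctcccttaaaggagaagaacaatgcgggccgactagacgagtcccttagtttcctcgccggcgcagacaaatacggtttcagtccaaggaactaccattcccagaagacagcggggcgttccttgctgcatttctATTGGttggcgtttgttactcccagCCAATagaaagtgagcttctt
MED20: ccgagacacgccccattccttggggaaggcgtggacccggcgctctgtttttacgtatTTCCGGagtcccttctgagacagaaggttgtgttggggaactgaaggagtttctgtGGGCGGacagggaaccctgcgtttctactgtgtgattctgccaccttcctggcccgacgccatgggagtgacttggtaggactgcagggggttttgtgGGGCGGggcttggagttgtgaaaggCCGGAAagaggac
MED26: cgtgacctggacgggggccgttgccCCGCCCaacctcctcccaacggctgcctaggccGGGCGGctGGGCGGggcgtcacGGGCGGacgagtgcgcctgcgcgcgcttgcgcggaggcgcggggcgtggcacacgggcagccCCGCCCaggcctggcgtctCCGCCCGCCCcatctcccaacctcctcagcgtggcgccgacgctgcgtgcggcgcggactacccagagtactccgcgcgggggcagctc

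MED24, which fell, carried a CCAAT motif on each strand at bases -46 and -21 from the start counted to the first base of the match, and none of the other motifs. MED20, which rose, carried CCGGAA at -192 and -13 and GGGCGG at -136 and -38. MED26, which rose, carried only GGGCGG, 7 times from -225 to -85, and the matches at -89 and -85 on the opposite strand overlap. The window table, 250 bases before to 50 after a start, held 25 of the 33 members; MED6, MED8, MED13, MED14, MED21, MED22, MED28 and MED30 were not matched. CACGTG stood in 8% of the 25 matched members (CDK8 and MED13L), beside 12.8% of 8555 tested protein-coding genes with a window and 8.77% of all 27305 genes with one. CCGGAA stood in 40%, 37.7% and 20.1% of the same sets. CCAAT stood in 40%, 44% and 39.7%, GGGCGG in 64%, 76.8% and 48.3%, and TATAAA in 8%, 7.5% and 14%. Among called members, CCAAT stood in MED24 (lower) and in CDK19 and MED7 (higher). CCGGAA stood in MED12 (lower) and in MED20 and MED7 (higher). GGGCGG stood in MED12 (lower) and in MED20, MED26, MED7, CDK19 and CDK8 (higher). CACGTG stood only in CDK8 and TATAAA only in MED7, both higher. Whether a motif goes with the direction of change was not tested. A match is a description of letters and not a site of binding.

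Per exon length, Mediator genes spanned more than an order of magnitude. Levels between genes are compared as CPM per kilobase of annotated exon, and this scale depends on the annotated length, which for MED13L is 37364 exon bases. In JQ1 libraries MED13 was the most abundant member at 29.4 ± 1.12, followed by MED4 at 26.6 ± 2.15, MED30 at 20.9 ± 1.6 and CCNC at 20.1 ± 0.550. In DMSO libraries MED4 came first at 28.7 ± 2.93, then MED13 at 25.9 ± 0.843, MED30 at 22.9 ± 1.68 and CCNC at 18.5 ± 0.502 (SD, n = 3 each). MED13 and MED4 lay within the sum of their SDs in each group, as did MED30 and CCNC in JQ1 libraries, whereas MED30 lay below MED4 and MED13 by more than that in both groups. The lowest members were MED25 at 2.30 ± 0.199 in JQ1 and 2.04 ± 0.312 in DMSO libraries, and MED26 at 2.70 ± 0.178 in JQ1 and 1.70 ± 0.0591 in DMSO libraries. The summed level of all 33 genes was 336 ± 3.54 CPM per kilobase in JQ1 and 331 ± 10.9 in DMSO libraries, so the total of Mediator RNA differed by less than the spread between DMSO replicates.

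**Figure D1:**
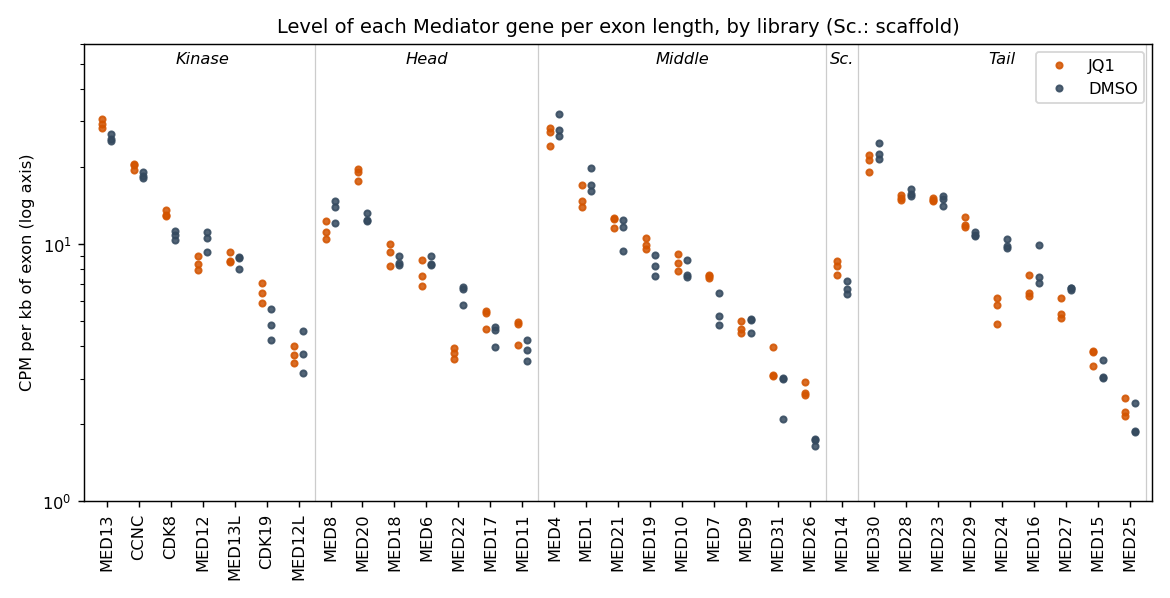
CPM per kilobase of exon (log axis) of the 33 Mediator genes, grouped by module and in order of level, with 1 point per library, JQ1 left and DMSO right. MED4 and MED13 are at the top, MED26 and MED25 at the bottom. For 15 of the 33 genes the points of the groups do not overlap, beside 53.1% of tested protein-coding genes.

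The sums by module were less even. The kinase module summed to 89.3, 89.2 and 91.6 CPM per kilobase in JQ1 replicates 1, 2 and 3, against 82.9, 84.1 and 81.5 in DMSO replicates 1, 2 and 3, and every JQ1 library lay above every DMSO library. Its largest members were not called: MED13 (29.4 ± 1.12 in JQ1, 25.9 ± 0.843 in DMSO) and CCNC (20.1 ± 0.550 in JQ1, 18.5 ± 0.502 in DMSO). Of its 7 genes 5 had positive and 2 negative log2 fold changes, with MED12 lower (8.40 ± 0.528 in JQ1, 10.3 ± 0.939 in DMSO). The tail summed to 87.7, 84.8 and 88.3 in JQ1 and 96.5, 91.8 and 95.2 in DMSO libraries, with every JQ1 library below. This sum includes MED24, the only tail gene called, at 5.62 ± 0.658 in JQ1 and 10 ± 0.456 in DMSO libraries. MED14 alone, the scaffold, stood at 8.13 ± 0.498 in JQ1 and 6.77 ± 0.393 in DMSO libraries. The head (60.5 ± 1.79 in JQ1, 58.1 ± 2.53 in DMSO) and the middle (90.8 ± 3.08 in JQ1, 88.4 ± 6.63 in DMSO) overlapped between groups. These sums are descriptions of genes chosen with earlier results known and carry no test.

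Under JQ1, 6 Mediator genes were called higher and 3 lower, and 24 did not pass. Together these were 9 calls, beside 41.3% of tested protein-coding genes called in either direction. By direction, 18.2% of the 33 were higher and 9.09% lower, beside 17.0% higher and 24.3% lower among 10667 tested protein-coding genes. The share of higher calls was thus near the background, and the share of lower calls below it; this difference between shares was not tested. The median log2 fold change was 0.10 over Mediator genes and -0.03 over tested protein-coding genes, and the median size regardless of sign was 0.21 and 0.29. The JQ1 and DMSO libraries did not overlap for 15 members, beside 53.1% of tested protein-coding genes. With the replicate number as a block, 10 members were called higher and 7 lower, beside 28.9% and 34.6% of the background. Only 3 members changed by more than 1.5-fold: MED24, MED22 and MED26.

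**Figure D2:**
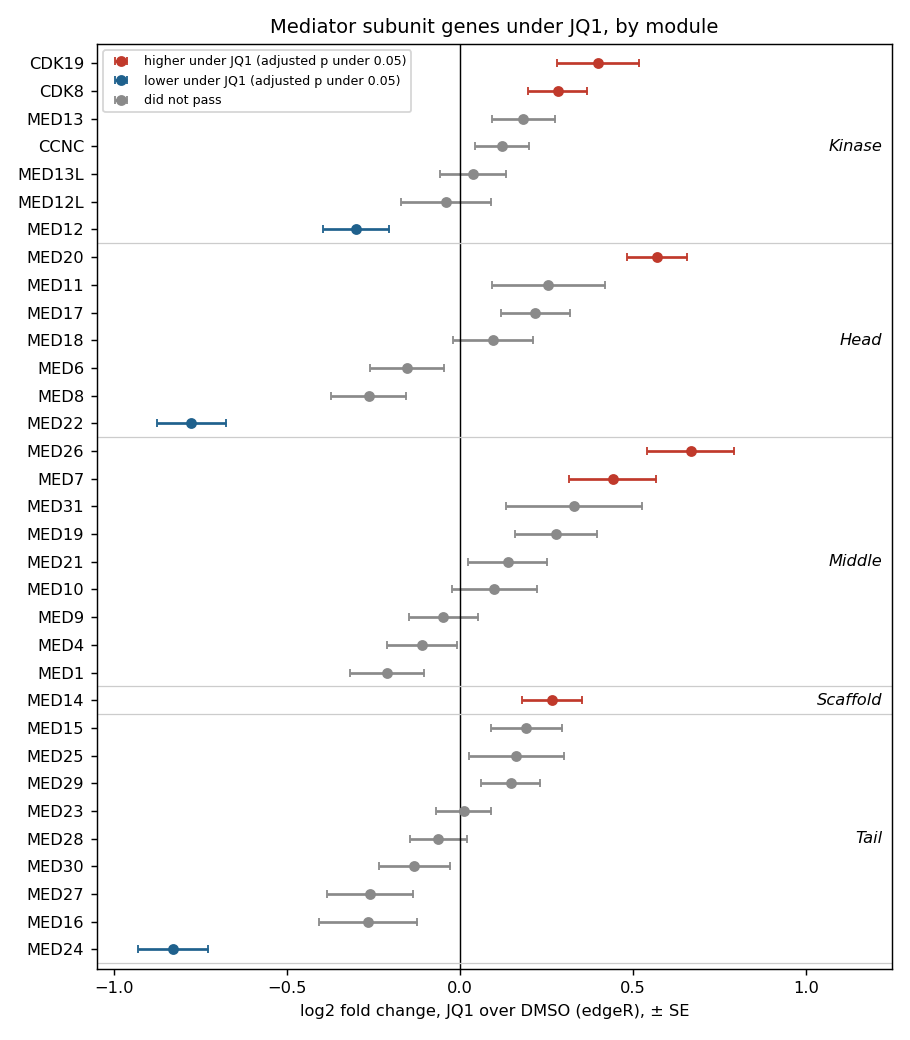
log2 fold change of JQ1 over DMSO with its standard error for each Mediator gene, by module, with called genes in colour. MED24 at -0.83 and MED22 at -0.78 stand apart on the lower side, and MED26 at 0.67 and MED20 at 0.57 lead on the higher side.

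In the tail, which receives signals from transcription factors, MED24 fell. MED24 is a tail subunit that helps nuclear receptors and other activators to engage Mediator. It stood at 40.3, 43.0 and 34.0 CPM in JQ1 replicates 1, 2 and 3, against 73.2, 67.1 and 68.6 CPM in DMSO replicates 1, 2 and 3. No JQ1 library came near the lowest DMSO library. Its level fell to 39.1 ± 4.58 CPM in JQ1 libraries, against 69.6 ± 3.18 CPM in DMSO libraries, a log2 fold change of -0.83 ± 0.10 (edgeR adjusted p = 0.00021). THRA, a thyroid hormone receptor gene that shares the locus on the opposite strand with no exon in common, also fell (-0.91 ± 0.13, edgeR adjusted p = 0.00055), whereas PSMD3 on the other side did not pass (0.24 ± 0.11, edgeR adjusted p = 0.12). Neighbours of the Mediator genes were looked at after the values were seen.

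The other 8 tail genes did not pass. MED16 (-0.27 ± 0.14), MED27 (-0.26 ± 0.12), MED30 (-0.13 ± 0.10) and MED28 (-0.06 ± 0.08) had negative values, and MED23 (0.01 ± 0.08), MED29 (0.15 ± 0.09), MED25 (0.16 ± 0.14) and MED15 (0.19 ± 0.10) positive ones. MED23, a contact of the factor ELK1, was among the most even members, at 110.6 ± 1.48 CPM in JQ1 and 109.8 ± 4.83 CPM in DMSO libraries. The sign of its log2 fold change was not stable, running from -0.05 to 0.04 over 16 alternative settings. MED15, a contact of SREBP factors, and MED25, a contact of ETV-family factors, lie at the low end of the complex. MED27 was lower in each of the 3 JQ1 libraries (13.1, 11.3 and 10.9 CPM) than in the DMSO libraries (14.2, 13.9 and 14.2 CPM) without passing the test (edgeR adjusted p = 0.13). With the replicate block MED16 and MED27 were called lower and MED15 higher.

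The head module held the other large fall and one of the firm rises. MED22, which pairs with MED11 at the base of the head, stood at 25.7, 27.3 and 28.4 CPM in JQ1 replicates 1, 2 and 3, against 49.2, 41.7 and 48.4 CPM in DMSO replicates 1, 2 and 3. The groups were far apart. The means were 27.1 ± 1.34 CPM in JQ1 and 46.4 ± 4.14 CPM in DMSO libraries, a log2 fold change of -0.78 ± 0.10 (edgeR adjusted p = 0.00028). MED22 (ENSG00000148297.15, chromosome 9, 133338323 to 133348131, GRCh38) lies in the surfeit gene cluster. Its divergent neighbour RPL7A, a ribosomal protein gene whose start lies 83 bases away, did not pass (0.11 ± 0.11), while SURF6, a nucleolar protein gene on its other side, fell by 0.52 ± 0.09 on the log2 scale (edgeR adjusted p = 0.0019).

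MED20, which forms the movable jaw of the head with MED18, rose. It had 57.9, 64.2 and 62.5 CPM in JQ1 replicates 1, 2 and 3, against 43.4, 40.4 and 40.5 CPM in DMSO replicates 1, 2 and 3. Every JQ1 library exceeded every DMSO library by a wide margin. The means were 61.5 ± 3.26 CPM in JQ1 and 41.4 ± 1.69 CPM in DMSO libraries, a 1.49-fold rise (log2 fold change 0.57 ± 0.09, edgeR adjusted p = 0.00067). MED18 itself had 18.5 ± 1.77 CPM in JQ1 and 17.3 ± 0.702 CPM in DMSO libraries and did not pass (0.10 ± 0.12, edgeR adjusted p = 0.56).

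MED20 (ENSG00000124641.15, chromosome 6, 41905354 to 41921139, GRCh38) shares its start region with BYSL, a gene of small ribosomal subunit assembly read in the opposite direction from 49 bases away. BYSL had 25.9, 27.9 and 34.6 CPM in JQ1 replicates 1, 2 and 3, against 42.3, 35.7 and 44.1 CPM in DMSO replicates 1, 2 and 3. The groups did not overlap, and BYSL fell by 0.47 ± 0.13 on the log2 scale (edgeR adjusted p = 0.016) where MED20 rose. The RefSeq window of BYSL held CCGGAA at -118 and GGGCGG at -89 and -34, motifs that MED20 also has. It also held CACGTG at 29. No CACGTG was found in the window of MED20, while that of CDK8, called higher, held one. These positions count from RefSeq starts and the 49 bases from GENCODE starts. The windows of MED20 and BYSL therefore need not cover the same bases, and a motif absent from one may lie outside it. Whether any of these motifs bears on the opposite directions was not tested.

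The remaining head genes did not pass. MED8 stood at 30.1, 33.3 and 28.2 CPM in JQ1 replicates 1, 2 and 3, against 39.7, 37.7 and 32.7 CPM in DMSO replicates 1, 2 and 3. A JQ1 library lay just above the lowest DMSO library, and the log2 fold change was -0.26 ± 0.11 (edgeR adjusted p = 0.082). It was called lower with the replicate block (edgeR adjusted p = 0.0034), when scaled by library size alone (0.031) and with DMSO replicate 3 left out (0.046). MED17, the central subunit of the head, stood at 89.3, 91.1 and 77.6 CPM in JQ1 replicates 1, 2 and 3, against 78.7, 77.2 and 66.2 CPM in DMSO replicates 1, 2 and 3. The groups overlapped, since JQ1 replicate 3 lay below DMSO replicate 1. Its log2 fold change was 0.22 ± 0.10 (edgeR adjusted p = 0.11, and 0.0030 with the replicate block). MED11 (0.26 ± 0.16, with only 105 to 165 counts per library) and MED6 (-0.15 ± 0.11) did not pass under any setting.

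**Figure D3:**
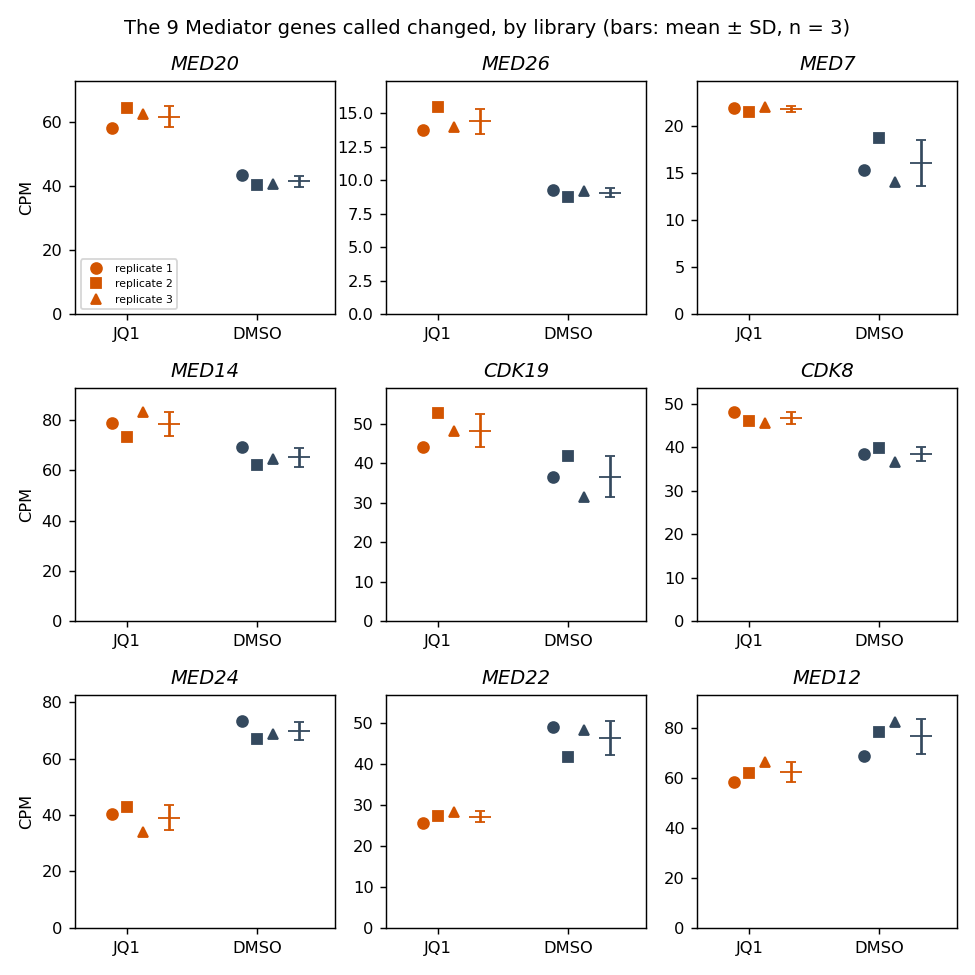
CPM in each library for the 9 Mediator genes called changed, JQ1 left and DMSO right, with a marker shape for each replicate number and bars for mean ± SD (n = 3). The groups of MED20, MED26, MED24 and MED22 are widely separated, whereas those of MED7, MED14, CDK19, CDK8 and MED12 come closer.

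In the middle module, which spans the complex next to the polymerase, 2 of 9 genes rose and 0 fell, or 22.2% higher beside 17.0% higher and 24.3% lower among tested protein-coding genes. At an unadjusted p under 0.05 the module had 3 genes, with MED19 the third. Even after adjustment 41.3% of tested protein-coding genes were called in either direction, so this count does not stand out. DESeq2 and limma-voom called 0 of the 9 lower, whereas the replicate block also called MED1 lower and MED19 higher. Over all tested genes DESeq2 called 2140 higher and 2747 lower of 16358, and limma-voom 2239 higher and 2877 lower of 13975. MED26, the subunit through which Mediator recruits elongation factors and which is absent when the kinase module is bound, rose. It had 13.7, 15.5 and 14.0 CPM in JQ1 replicates 1, 2 and 3, against 9.31, 8.72 and 9.21 CPM in DMSO replicates 1, 2 and 3. The lowest JQ1 library lay well above the highest DMSO library. The rise was 1.59-fold (log2 fold change 0.67 ± 0.12, edgeR adjusted p = 0.0023). MED26 (ENSG00000105085.10, chromosome 19, 16574907 to 16629062, GRCh38) shares 2351 of its 5330 exon bases with other annotated genes of the same strand, where reads count for neither gene, so its level is uncertain. Its neighbour SLC35E1, read in the same direction, fell by 0.77 ± 0.10 on the log2 scale (edgeR adjusted p = 0.00032).

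MED7, part of the hinge between the middle and the head, rose too. It had 21.9, 21.5 and 22.0 CPM in JQ1 replicates 1, 2 and 3, against 15.3, 18.8 and 14.1 CPM in DMSO replicates 1, 2 and 3. The JQ1 libraries were nearly equal, and the spread came from DMSO. Its log2 fold change was 0.44 ± 0.13 (edgeR adjusted p = 0.021). Leaving out replicate 1 or 3 of either group ended the call (0.36 to 0.44, edgeR adjusted p from 0.052 to 0.066). MED21, its partner in the hinge, had 39.5 ± 2.02 CPM in JQ1 and 35.9 ± 4.93 CPM in DMSO libraries and did not pass (0.14 ± 0.11).

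MED1, the large subunit that nuclear receptors and many enhancer factors contact, did not pass. It had 123.9, 102.4 and 108.0 CPM in JQ1 replicates 1, 2 and 3, against 144.8, 124.4 and 118.0 CPM in DMSO replicates 1, 2 and 3. Each JQ1 library lay below the DMSO library of the same number, although the groups overlapped. The log2 fold change was -0.21 ± 0.11 (edgeR adjusted p = 0.15), and with the replicate block MED1 was called lower (-0.21, edgeR adjusted p = 0.0036). MED19 had 17.9, 19.8 and 18.7 CPM in JQ1 replicates 1, 2 and 3, against 17.0, 15.5 and 14.1 CPM in DMSO replicates 1, 2 and 3. The groups lay side by side without overlap, and the log2 fold change was 0.28 ± 0.12 (edgeR adjusted p = 0.089, and 0.015 with the replicate block).

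MED4, MED9, MED10 and MED31 did not pass under any setting, with log2 fold changes of -0.11 ± 0.10, -0.05 ± 0.10, 0.10 ± 0.12 and 0.33 ± 0.20. MED31 rests on 101 to 179 counts per library. It also had the highest share of reads on the opposite strand, 24.6% of all reads over its exons, where TXNDC17 overlaps 1227 of its exon bases. The counts used here leave those reads out.

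MED14, the scaffold, rose slightly. It had 79.0, 73.5 and 83.1 CPM in JQ1 replicates 1, 2 and 3, against 69.5, 62.0 and 64.6 CPM in DMSO replicates 1, 2 and 3. The groups did not overlap, but the lowest JQ1 and the highest DMSO library were only a few CPM apart. This gave a log2 fold change of 0.27 ± 0.09 (edgeR adjusted p = 0.036). The call was lost in 8 of 16 alternative settings, among them DESeq2 (adjusted p = 0.052), unstranded counts (edgeR adjusted p = 0.059), library size only (0.105), no filter (0.083) and the fits that left out JQ1 replicate 1 or 3 or, among the controls, replicate 2 or 3 (0.073 to 0.13). Over all settings the log2 fold change ran from 0.20 to 0.31.

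The kinase module, which phosphorylates transcription factors and holds the core away from the polymerase, had both of its kinase genes higher. CDK8 had 48.2, 46.1 and 45.6 CPM in JQ1 replicates 1, 2 and 3, against 38.5, 39.8 and 36.7 CPM in DMSO replicates 1, 2 and 3. The groups were tight and did not overlap. The log2 fold change was 0.28 ± 0.09 (edgeR adjusted p = 0.025), and it ran from 0.22 to 0.32 over the 16 settings. The call ended in 7 of them, namely with library size only (edgeR adjusted p = 0.071), with no filter (0.081) and with any library but DMSO replicate 2 left out (0.051 to 0.087). CDK19, the paralog, had 44.2, 52.8 and 48.1 CPM in JQ1 replicates 1, 2 and 3, against 36.5, 41.9 and 31.6 CPM in DMSO replicates 1, 2 and 3. Its libraries spread more within each group, and only a narrow gap separated JQ1 replicate 1 from DMSO replicate 2. For CDK19 the log2 fold change was 0.40 ± 0.12 (edgeR adjusted p = 0.023). That call ended when JQ1 replicate 2 or 3, or control replicate 1 or 3, was left out (0.31 to 0.40, edgeR adjusted p from 0.051 to 0.076). CCNC, the cyclin that both kinases need, had 115.9 ± 3.17 CPM in JQ1 and 106.6 ± 2.90 CPM in DMSO libraries and did not pass (0.12 ± 0.08, edgeR adjusted p = 0.25).

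MED12, which switches on the kinase through cyclin C, moved the other way. It had 58.6, 62.1 and 66.5 CPM in JQ1 replicates 1, 2 and 3, against 69.0, 78.5 and 82.7 CPM in DMSO replicates 1, 2 and 3. The groups did not overlap, although JQ1 replicate 3 came close to DMSO replicate 1. MED12 fell by 0.30 ± 0.10 on the log2 scale (edgeR adjusted p = 0.031), and the call ended when JQ1 replicate 1 or 2, or control replicate 2 or 3, was left out (-0.30 to -0.24, edgeR adjusted p from 0.068 to 0.11). MED12L, its paralog, had 43.6, 46.6 and 50.6 CPM in JQ1 replicates 1, 2 and 3, against 39.7, 47.1 and 57.8 CPM in DMSO replicates 1, 2 and 3. DMSO replicates 1 and 3 enclosed all JQ1 libraries, and the log2 fold change was -0.04 ± 0.13, with no stable sign (-0.16 to 0.11 over the settings).

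MED13, which links the kinase module to the core, had 372.3, 358.9 and 387.4 CPM in JQ1 replicates 1, 2 and 3, against 340.1, 325.9 and 319.2 CPM in DMSO replicates 1, 2 and 3. It was the member with the most counts, and its groups did not overlap. The log2 fold change of 0.18 ± 0.09 did not pass (edgeR adjusted p = 0.14, and 0.017 with the replicate block). MED13L had 319.9, 348.3 and 316.9 CPM in JQ1 replicates 1, 2 and 3, against 332.7, 328.8 and 298.7 CPM in DMSO replicates 1, 2 and 3. Its groups overlapped, although JQ1 replicate 2 lay above and DMSO replicate 3 below every library of the other group, with a log2 fold change of 0.04 ± 0.10 and no stable sign (-0.02 to 0.07 over the settings).

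The module can hold the product of only a single gene of each paralog pair at a time, so the balance within the 3 pairs was compared inside each library, where depth and scaling cancel. The log2 ratio of MED12L to MED12 counts was -0.43, -0.41 and -0.39 in JQ1 replicates 1, 2 and 3, against -0.80, -0.74 and -0.52 in DMSO replicates 1, 2 and 3. All JQ1 libraries lay above all DMSO libraries, a difference of 0.27 (2-sided exact permutation p = 0.1, the smallest that 3 against 3 allow, and 0.3 after adjustment over the 3 pairs). Per exon length MED12L made up 30.7% ± 0.243 of the pair in JQ1 and 26.8% ± 2.03 in DMSO libraries. The ratio of CDK19 to CDK8 was 0.05 ± 0.16 in JQ1 and -0.07 ± 0.14 in DMSO libraries (difference 0.12, exact permutation p = 0.4), and that of MED13L to MED13 was -0.18 ± 0.13 in JQ1 and -0.04 ± 0.05 in DMSO libraries (difference -0.15, exact permutation p = 0.2). The groups overlapped for both. Paired by replicate number, the exact sign-flip p was 0.25 for MED12L to MED12 and for MED13L to MED13, the smallest that 3 pairs allow, and 0.5 for CDK19 to CDK8. At n = 3 such p-values do not show that the balance stayed the same.

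The firmness of the calls differed among the 9 members. MED24, MED22, MED20 and MED26 were called in the same direction in all 16 alternative settings, which cover other tests, other scalings, other filters, unstranded counts, the replicate block and each library left out. The calls of MED7, MED14, CDK8, CDK19 and MED12 were each lost in at least 4 of the 16. Of the 24 uncalled members 8 were called with the replicate block (MED13, MED15, MED17 and MED19 higher, MED1, MED8, MED16 and MED27 lower), and 16 were called in no setting.

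**Figure D4:**
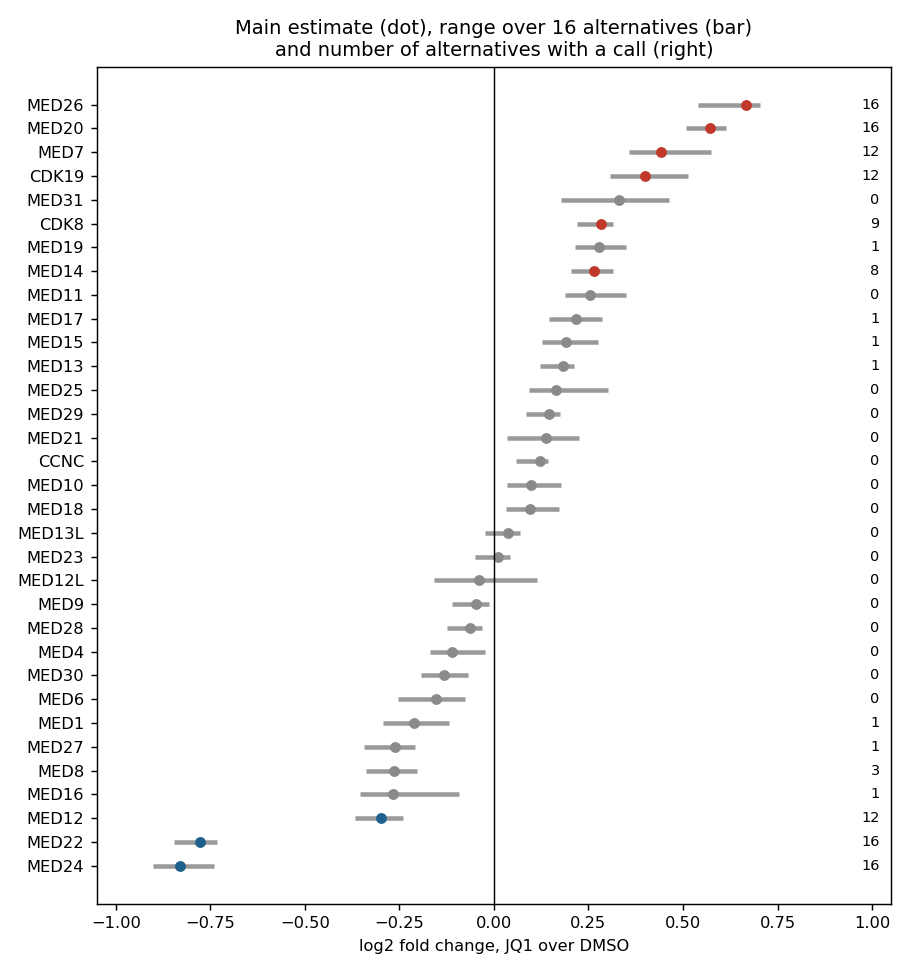
log2 fold change of each Mediator gene as reported (dot, coloured where called) with its range over 16 alternative settings (bar) and, at the right, the number of those settings with a call. Only MED26, MED20, MED22 and MED24 reach 16, and MED13L, MED23 and MED12L have bars that cross 0.

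The partners of Mediator were read from the same fit, beside the same background of 17.0% higher and 24.3% lower. Of 14 genes of enhancer co-factors and cohesin 1 rose and 0 fell. The riser was the acetyltransferase gene EP300 (0.23 ± 0.08, edgeR adjusted p = 0.045), a call that ended in 10 of 16 settings, each left-out library among them (0.056 to 0.15). At an unadjusted p under 0.05 this list had 4 genes, beside 41.3% of tested protein-coding genes called even after adjustment. DESeq2 called 0 higher and 1 lower, while limma-voom called 1 higher and 0 lower. The median over the list was -0.04.

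Of 17 tested genes of RNA polymerase II and initiation factors 3 rose and 2 fell, with a median of -0.02. POLR2L, a small subunit shared by the 3 RNA polymerases, rose to 91.2 ± 5.27 CPM in JQ1 libraries, against 60.3 ± 2.48 CPM in DMSO libraries (0.60 ± 0.08, edgeR adjusted p = 0.00047). GTF2B, the gene of TFIIB, rose by 0.56 ± 0.10 and POLR2A, the largest subunit, by 0.52 ± 0.11 on the log2 scale (edgeR adjusted p = 0.0018 and 0.0041). POLR2I (-0.37 ± 0.12) and GTF2F1 (-0.24 ± 0.08) fell, and both calls ended when replicate 1 or 3 of either group was left out. Leaving out JQ1 replicate 2 also ended the call of POLR2I, and leaving out DMSO replicate 2 that of GTF2F1. GTF2F1 was named after its values were seen, to complete the count. POLR2F had 0 to 3 counts in every library and was not tested.

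Of 13 cyclin-dependent kinases and cyclins that act in transcription outside Mediator 4 rose and 0 fell, with a median of 0.14. They were CDK9, the P-TEFb kinase (0.51 ± 0.09, edgeR adjusted p = 0.0016), the splicing-linked cyclins CCNL1 (0.49 ± 0.09, edgeR adjusted p = 0.0021) and CCNL2 (0.44 ± 0.13, edgeR adjusted p = 0.023, lost in 4 settings), and CCNK, the cyclin of CDK12 and CDK13 (0.35 ± 0.10, edgeR adjusted p = 0.024, lost in 5). CDK9 and CCNL1 were called in all 16 settings. The list had 4 genes at an unadjusted p under 0.05, beside 41.3% of tested protein-coding genes called even after adjustment. DESeq2 and limma-voom each called 4 higher and 0 lower. CDK8 and CDK19 thus had values of 0.28 and 0.40 beside 0.51 for CDK9, while the CDK7 kinase of TFIIH had 0.06 ± 0.12 and did not pass.

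For 7 Mediator genes a tested protein-coding gene on the opposite strand had its annotated start within 1000 bases and is reported here, a set looked at after the values were seen. In these 7 pairs the estimates had opposite signs, beside 478 of 947 such pairs (50.5%) among all tested protein-coding genes. Both genes were called only for MED20 and BYSL; among all pairs with both genes called, 79 of 148 had opposite directions. TMX2, a thioredoxin-related membrane protein gene that starts 277 bases from MED19, fell by 0.42 ± 0.10 on the log2 scale (edgeR adjusted p = 0.0092), with 59.8 ± 6.56 CPM in JQ1 and 79.9 ± 5.52 CPM in DMSO libraries, while MED19 had 0.28 ± 0.12. The other 5 pairs had no called neighbour. They were MED22 with RPL7A (-0.78 and 0.11), MED17 with TAF1D (0.22 and -0.06), MED15 with KLHL22 (0.19 and -0.16), MED25 with FUZ (0.16 and -0.25) and MED29 with PAF1 (0.15 and -0.05). Most of these values lie within about 2 standard errors of 0, so their signs are uncertain.

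**Figure D5:**
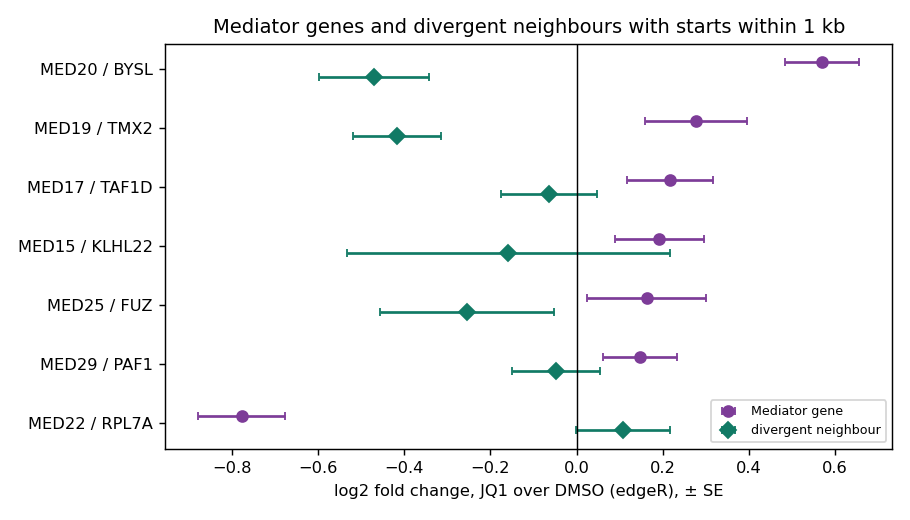
log2 fold change of JQ1 over DMSO with its standard error for 7 Mediator genes (circles) and their divergent neighbours (diamonds). The circle and the diamond of each row lie on opposite sides of 0, with several error bars close to or across it.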

How the data were processed

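The authors deposited raw counts of reads per gene for 6 libraries, without normalisation, in 3 columns (both strands together and each strand). The layout, with unmapped, multimapping, no-feature and ambiguous reads in rows of their own, is that of STAR's gene counts; those rows were left out (39.2 to 45.6% of the stranded column). Processing notes of the submitters name GRCh38; aligner version and annotation release: not given in the sources used here. The reverse-strand column was used, with 20.9 to 22.6 times the counts of the other strand. Gene identifiers were matched to GENCODE release 29 (57488 of 58096 without version); 28 of 33 members matched with version, and gene positions are printed for matched ones, apart from the GENCODE end of MED24; RefSeq promoter windows were matched by symbol. Replicates of a group differed by more than sampling noise (chi-square over degrees of freedom 13.8 to 28.6).

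Genes were filtered with filterByExpr (minimum count 10, minimum total 15), scaled by TMM factors (0.965 to 1.06) and tested with edgeR 4.0.16 in R 4.3.3 (glmQLFit and glmQLFTest, robust, group only) over all 13975 genes; SE was taken as the size of the log2 fold change over root F. The main fit was also run on simulated counts drawn independently for each library, so that run does not cover a pairing of same-numbered libraries. CPM per kilobase uses the union of annotated exons. Alternatives were DESeq2 1.42.0, limma-voom (limma 3.58.1), other scalings and filters, unstranded counts, removal of mitochondrial and small RNA genes, a replicate block, and removal of each library. Values of some genes among the partners and neighbours are not reported here; partner list counts include all listed genes. The members and lists were chosen with earlier results of these data known. Modules follow the usual structural scheme, in which MED27 to MED30 are sometimes placed with the head. Values in every library were to be given for members called with at least 1.5-fold change, both genes of each paralog pair and the 3 uncalled members with the smallest p; MED20, MED7, MED14, MED1 and MED27 were added after their values were seen.

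The titles number the libraries 1 to 3 in each group. Across genes, same-numbered libraries deviated together from their group means (correlations 0.326, 0.433 and 0.371). The other combinations had -0.247 to -0.139. Deviations from a group mean cancel within each gene, so positive same-number values must be offset by negative ones elsewhere, which add no evidence. The numbers were taken to pair the samples on the same-number values alone. This pairing comes from the data, and the labels do not say what the numbers mark. The main calls and standard errors do not use it. A member said not to pass may thus be called with the block, as 8 were. The common biological coefficient of variation was 0.126 without and 0.0595 with the block.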

Additional observations from a re-analysis of the deposited data

How the results depend on the processing

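With the replicate block, whose pairing comes from the data, 10 Mediator genes were called higher and 7 lower. Of all tested genes 3813 were called higher and 4133 lower, and of tested protein-coding genes 28.9% and 34.6%. Among 14 enhancer and cohesin partners 5 were called higher and 2 lower. Among 17 tested polymerase and initiation genes 4 were called higher and 5 lower. No Mediator call was lost. Enhancer and cohesin partners called higher numbered 0 with DESeq2, library size only, no filter or unstranded counts, 2 with relative log expression factors, the 1 CPM filter or small RNA genes left out, and 3 with upper-quartile factors; those called lower numbered 1 with DESeq2, library size only or no filter. Polymerase and initiation genes called lower numbered 1 with DESeq2, no filter or unstranded counts. Transcriptional CDKs and cyclins called higher numbered 2 with library size only. Over fits without a library, Mediator genes called higher numbered 2 to 5 (2 without JQ1 or DMSO replicate 3, 3 without JQ1 or DMSO replicate 1) and lower 2 to 3, enhancer and cohesin partners higher 0 and lower 0 to 1, polymerase and initiation genes lower 0 to 1, and CDKs and cyclins higher 2 to 4 (2 without JQ1 replicate 1). No called direction reversed. The difference in the MED12L to MED12 ratio ran from 0.216 to 0.356 without a library, and 0.273 in the pairs by number (exact sign-flip permutation p = 0.25, the smallest possible). The causes of these shifts were not tested. Depth limits MED11 and MED31 most, with under 200 counts in each library.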

Other observations

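Deviations from the group means also correlated between same-numbered libraries over the 33 Mediator genes alone, with 0.317, 0.48 and 0.591 for numbers 1, 2 and 3. The values were scaled for library depth beforehand. This is a description over genes of the same libraries, which are not replicates.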
